A study of Mus musculus with 12 samples.

Results

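Lubricin (Prg4) and 9 further proteoglycan genes, Dcn, Bgn, Cspg4, Vcan, Hspg2, Sdc1, Sdc2, Sdc3 and Sdc4, were followed through 5 comparisons of MC38 tumour cultures. They were found by gene symbol, and all 10 were present in each of the 5 tables, out of 16399 symbols over the tables. MC38 is a mouse colon carcinoma line, grown here as tumours in C57BL/6 albino mice. The tumours were dissociated, and pieces of 40 to 100 µm were kept in collagen gel (2.8 mg/mL) in microfluidic chips with 300 µL of medium a well for 6 days. RNA of the whole well was then sequenced after exome capture, so tumour cells and any host cells left in the pieces were measured together.

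The 4 groups had 3 samples each. The aPD-1 cultures received an antibody against PD-1 (clone RMP1-14), an inhibitory receptor of T cells, at 10 µg/mL. The aPD-1+CD8 cultures received the same antibody plus an antibody against CD8, the co-receptor of killer T cells, each at 10 µg/mL. The IFNg cultures received interferon-gamma protein at 100 ng/mL, and the labels name no antibody there. The IgG cultures received a control antibody at 10 µg/mL. The labels do not give the age of the mice, and whether the 3 samples came from separate tumours or cultures is not stated. The spread behind the p-values is thus that between wells or libraries and may be technical.

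Proteoglycans are core proteins that carry long, negatively charged sugar chains called glycosaminoglycans. Outside the cell they organise collagen, hold water and bind growth factors, and on the cell surface they act as co-receptors. Lubricin, mucin-like and rich in short sugars, coats joint surfaces and prevents cells and proteins from sticking to them. In tumours most matrix proteoglycans are made by fibroblasts, while syndecans are also made by carcinoma cells.

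The deposited values are the authors' comparisons and not single libraries. Each gene has a mean normalized count over both groups of a comparison, and a log2 fold change (first named group over second) with its standard error (SE). A gene was called changed at an adjusted p under 0.05 in the authors' DESeq2 test over all genes. The members were selected on these same fold changes, those with the aPD-1 group on a side, so their values in the 3 comparisons in which aPD-1 alone is a side are given as descriptions without p-values. The level of a gene in a group was estimated from the mean count and the fold change of each table that held the group, and is given as the mean over those tables with the lowest and highest table. The tables differed in scale, with factors between 0.934 and 1.07 around their common mean. The deposited fold changes appear shrunken toward 0, least for genes with many counts. In bulk RNA, fewer cells of a type and less RNA per cell cannot be told apart.

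Markers of other cell types were uneven in depth. Of 8 epithelial genes, 7 were listed in the authors' deposited table for aPD-1 against IgG and all 7 had a mean count under 10, so the carcinoma label had little support in classical epithelial transcripts. All 5 listed genes of the 11 T and NK cell markers were under 10 as well. Fibroblast genes were plentiful, with a summed level over 10 of 11 list genes of 5991 in aPD-1 cultures, 1564 in aPD-1+CD8 cultures, 1297 in IFNg cultures and 1833 in IgG cultures. The pericyte and mural list summed to 746 in aPD-1, 833 in aPD-1+CD8, 710 in IFNg and 867 in IgG cultures over 7 of 9 genes. Endothelial genes summed to 88.5 in aPD-1, 29.8 in aPD-1+CD8, 50.3 in IFNg and 29.0 in IgG cultures over 6 of 8 genes. Among these Cdh5 rose by 1.49 ± 0.28 in the authors' deposited table for aPD-1 against IgG, where the endothelial genes Pecam1 and Kdr had mean counts of 1.18 and 0.545. Macrophage genes summed to 188 in aPD-1, 198 in aPD-1+CD8, 497 in IFNg and 213 in IgG cultures over 10 of 11 genes. Csf1r had a mean count of 191, of 368 summed over the 10 listed genes, in the authors' deposited table for IFNg against IgG, with no p-value there. Cd68 was at -0.14 ± 0.25 without a call. Of the 8 tested macrophage genes in that comparison 0 rose and 1 fell, against 2.73% higher and 1.38% lower over all tested genes. The pericyte genes Kcnj8 and Abcc9 and the fibroblast gene Thy1 were not listed in every table. The part of these markers in the changes described here was not tested.

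PD-1 blockade went with higher transcripts of most of these genes. In aPD-1 v IgG, 8 of the 10 members passed, against 18.5% of 12024 tested genes. Of these, 7 rose (8.50% of tested genes rose) and 1, Cspg4, fell (10.0% of tested genes fell). Since the members were chosen in view of this comparison, nothing is read from these shares. The median log2 fold change of the 10 was 0.82, against 0.01 over all tested genes. With a null fitted to the spread of the scores, whose robust SD was 1.69, Prg4, Dcn and Sdc1 alone of the 10 passed, against 4.35% of tested genes.

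**Figure D1:**
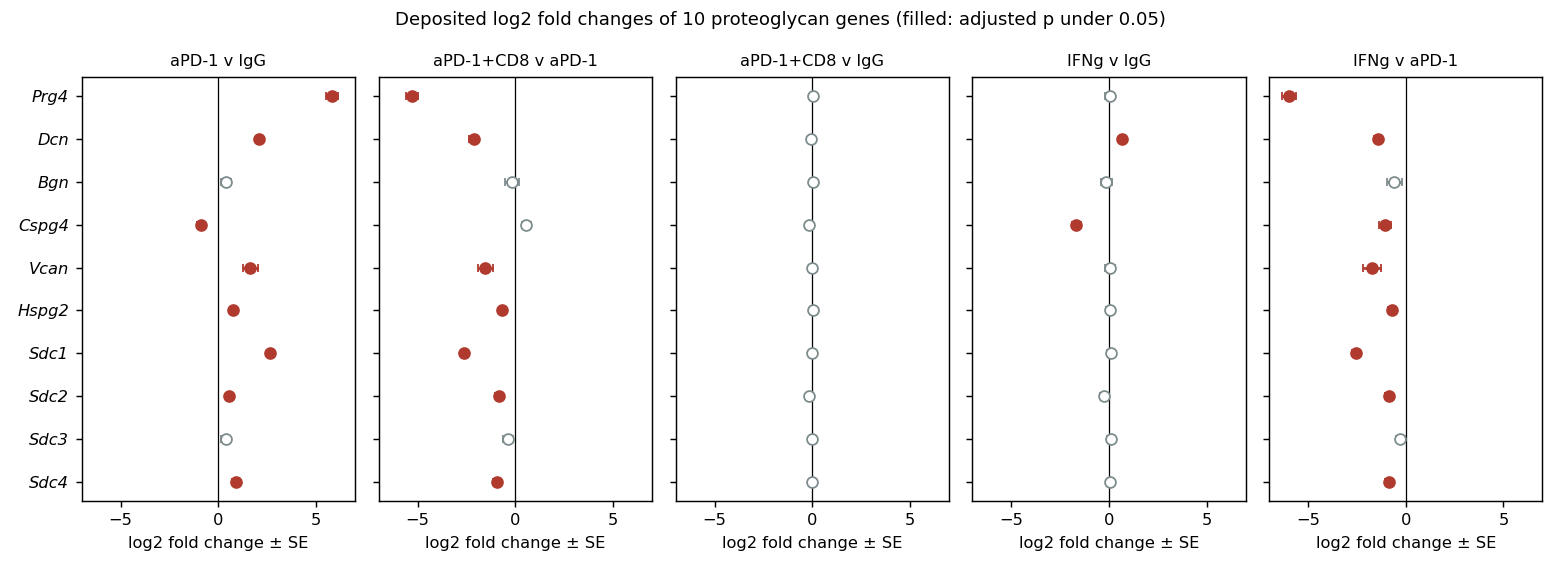
Log2 fold change (x axis, with SE bars) of the 10 genes (rows) in the 5 comparisons (panels), first named group over second. Filled red points passed an adjusted p under 0.05. Most genes lie right of 0 in aPD-1 v IgG and left of 0 in both comparisons over aPD-1, Cspg4 lies left of 0 in all 3 comparisons over IgG, and no point is filled in aPD-1+CD8 v IgG.

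Prg4 stood apart from the others by the size of its change. Its estimated level was 518 in aPD-1 cultures (480 to 551 over 3 tables), 8.28 in aPD-1+CD8 cultures (4.11 to 12.4 over 2 tables), 5.86 in IFNg cultures (3.42 to 8.31) and 5.65 in IgG cultures (3.35 to 9.58). The gene was thus near the detection limit in 3 of the 4 groups and well measured in aPD-1 cultures alone. In those 3 groups the highest estimates, 12.4, 8.31 and 9.58, are too high and raise the means that include them. The levels of both groups sum to only 6.77 in IFNg v IgG and 8.13 in aPD-1+CD8 v IgG. In the authors' deposited table for aPD-1 against IgG its log2 fold change was 5.84 ± 0.31 (SE), rank 1 of 12024 tested genes. It also had the lowest log2 fold change of all tested genes in the authors' deposited table for aPD-1+CD8 v aPD-1, at -5.27 ± 0.31, and in that of IFNg v aPD-1, at -5.98 ± 0.35.

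The deposited fold change of Prg4 understates the ratio of its levels. In the authors' deposited table for IFNg v IgG its mean count was 3.38, so the levels of both groups sum to 6.77 and neither can exceed that. After the tables were put on a common scale, this bound gave a level in aPD-1 cultures at least 79.3-fold higher than in IgG cultures (log2 of 6.31). By the same reasoning it was at least 79.9-fold higher than in IFNg cultures and at least 61.5-fold higher than in aPD-1+CD8 cultures. These bounds were computed after the values were seen, carry no error from single libraries, and rest on few counts in the low groups. Differences of rescaled mean counts put the levels at 522 in aPD-1, 6.12 in aPD-1+CD8, 5.25 in IFNg and 1.80 in IgG cultures. The order of those last 3 groups cannot be read at counts this low.

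**Figure D2:**
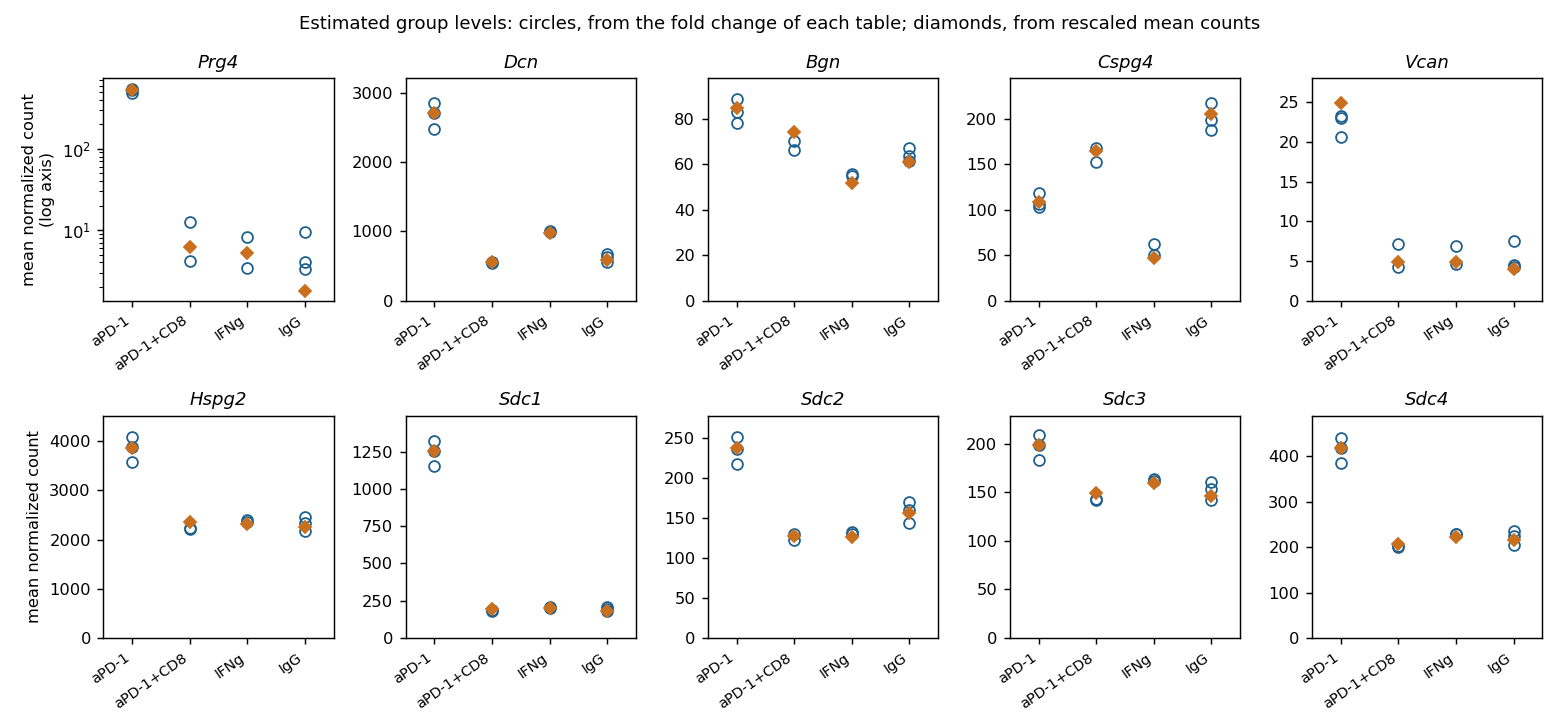
Estimated level (mean normalized count, y axis; log axis for Prg4, from 0 for the others) of each gene in the 4 groups. Circles come from the fold change of each table and diamonds from differences of rescaled mean counts. For Sdc1 the aPD-1 circles lie at 1156 to 1323 and those of the other groups at 179 to 211, while Cspg4 is lowest in IFNg cultures.

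Among well-counted genes, those whose 5 log2 fold changes lay closest to those of Prg4 were Pde4b, Mmp2, Igfbp4, Ncam1 and Fstl1. Likeness was the Euclidean distance over the 5 comparisons, among the 7133 genes whose mean count reached 50 in every table. Prg4 itself did not reach it, with 4.06 in aPD-1+CD8 v IgG and 3.38 in IFNg v IgG. Genes as scarce as Prg4 outside aPD-1 cultures were therefore not compared with it. The distance was 2.46 for Pde4b, a cAMP phosphodiesterase, and 3.02 for Mmp2, a matrix metalloproteinase. In aPD-1 v IgG their log2 fold changes were 4.31 ± 0.17 and 4.28 ± 0.19 (SE) in the authors' deposited table. Igfbp4, which binds insulin-like growth factors, lay at 4.02, the adhesion molecule Ncam1 at 4.27 and the secreted glycoprotein Fstl1 at 4.61. Much of each distance is the gap in size to Prg4, which no other gene matched in aPD-1 v IgG.

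Dcn and Bgn encode decorin and biglycan, close relatives among the small leucine-rich proteoglycans that bind collagen fibrils and growth factors such as TGF-beta. Dcn had an estimated level of 2686 in aPD-1 cultures (2486 to 2858), 554 in aPD-1+CD8 cultures (541 to 566), 999 in IFNg cultures (990 to 1008) and 620 in IgG cultures (560 to 669). The aPD-1 level was the highest, the IFNg level came next, and the tables of aPD-1+CD8 and IgG overlapped. Its log2 fold change was 2.09 ± 0.17 in the authors' deposited table for aPD-1 against IgG, -2.14 ± 0.21 in that of aPD-1+CD8 v aPD-1 and -1.43 ± 0.19 in that of IFNg v aPD-1, and it passed in all 3.

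Bgn did not follow Dcn. Its estimated level was 83.4 in aPD-1 cultures (78.4 to 88.8), 68.2 in aPD-1+CD8 cultures, 55.2 in IFNg cultures and 64.3 in IgG cultures (61.6 to 67.4). In the authors' deposited table for aPD-1 against IgG its log2 fold change was 0.40 ± 0.27 and did not pass, with a 95% interval from -0.13 to 0.93. It passed in none of the 5 comparisons. A change like that of Dcn lies outside this interval, although shrinkage narrows it, and the difference between the 2 genes was not tested. Of the other 11 listed members of the small leucine-rich list, none passed in aPD-1 v IgG, where 10 of the 13 listed genes had a mean count under 10 in the authors' deposited table. Lum, encoding lumican, was among them at 1.55.

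The 5 genes closest to Dcn in their 5 fold changes were Sod2, Junb, Fbn1, Glcci1 and Il13ra1. Sod2, the mitochondrial superoxide dismutase, was at a distance of 0.26, and the others lay between 0.44 and 0.45. In the authors' deposited table for aPD-1 against IgG, Sod2 was at 2.06 ± 0.15 and Fbn1, the microfibril protein fibrillin, at 2.13 ± 0.13. In IFNg v IgG Sod2 was at 0.46 ± 0.18 and Fbn1 at 0.42 ± 0.28 in the authors' deposited table. The distance used both of these comparisons, so the signs shared with Dcn follow from the choice of genes.

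Vcan encodes versican, a large chondroitin sulfate proteoglycan that binds hyaluronan, and Hspg2 encodes perlecan, a heparan sulfate proteoglycan of basement membranes. Hspg2 was abundant, with an estimated level of 3849 in aPD-1 cultures (3582 to 4086), 2231 in aPD-1+CD8 cultures (2221 to 2242), 2378 in IFNg cultures (2360 to 2396) and 2326 in IgG cultures (2184 to 2453). Only the aPD-1 level stood above the range of the rest. It rose by a log2 of 0.74 ± 0.15 in the authors' deposited table for aPD-1 against IgG. Vcan was scarce, with an estimated level of 22.3 in aPD-1 cultures (20.6 to 23.3), 5.69 in aPD-1+CD8 cultures, 5.76 in IFNg cultures and 5.38 in IgG cultures (4.21 to 7.49). Its log2 fold change in the authors' deposited table for aPD-1 against IgG was 1.64 ± 0.39. Differences of rescaled mean counts gave levels of 24.9 in aPD-1 and 3.93 in IgG cultures, a log2 ratio of 2.66 that was again larger than the deposited one.

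In aPD-1 v IgG, 3 of 13 listed hyalectan and hyaluronan genes, 10 of them tested, rose and none fell. Vcan was among the 3, and 8.50% of all tested genes rose. This list and the others were chosen with earlier results of these data known, so nothing is read from their counts beside such shares. Has2, a hyaluronan synthase, rose by 0.80 ± 0.24 and Tmem2, a cell-surface hyaluronidase, by 0.79 ± 0.18 in log2 in the authors' deposited table. Cd44, the hyaluronan receptor that lubricin also binds, missed the threshold at -0.18 ± 0.15 in the authors' deposited table. In the basement membrane list, Col18a1 rose beside Hspg2 by 0.67 ± 0.18 in the authors' deposited table. The other 11 of 13 listed genes, laminins, nidogens and agrin among them, did not pass. Of the 13, 10 were tested.

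The syndecans are transmembrane heparan sulfate proteoglycans that bind growth factors and matrix and whose outer part can be shed. Sdc1, the form typical of epithelia and plasma cells, had an estimated level of 1244 in aPD-1 cultures (1156 to 1323), 186 in aPD-1+CD8 cultures (182 to 191), 207 in IFNg cultures (204 to 210) and 194 in IgG cultures (179 to 211). The aPD-1 level was far above the others, which overlapped or nearly met. Its log2 fold change was 2.65 ± 0.15 in the authors' deposited table for aPD-1 against IgG, rank 32 of 12024 tested genes. It was -2.60 ± 0.17 in that of aPD-1+CD8 v aPD-1 and -2.58 ± 0.18 in that of IFNg v aPD-1, per the authors' deposited tables.

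Sdc4, a ubiquitous syndecan of focal adhesions, followed at a smaller size. Its estimated level was 415 in aPD-1 cultures (385 to 441), 201 in aPD-1+CD8 cultures (200.02 to 202), 229 in IFNg cultures (228 to 230.1) and 222 in IgG cultures (206 to 237). It rose by 0.90 ± 0.17 in log2 in the authors' deposited table for aPD-1 against IgG. Sdc2, the main syndecan of mesenchymal cells, had an estimated level of 235 in aPD-1 cultures (218 to 251), 126 in aPD-1+CD8 cultures (123 to 130), 131 in IFNg cultures (130 to 133) and 158 in IgG cultures (143 to 170.1). It rose by 0.56 ± 0.18 in the authors' deposited table for aPD-1 against IgG. Sdc3, known mainly from nervous tissue and muscle, was flatter, at 197 in aPD-1 cultures (183 to 209), 142 in aPD-1+CD8, 163 in IFNg and 152 in IgG cultures (142 to 160.3). It passed in no comparison, with 0.38 ± 0.21 in the authors' deposited table for aPD-1 against IgG and a 95% interval from -0.04 to 0.80.

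Cspg4, also called NG2, is a transmembrane chondroitin sulfate proteoglycan of pericytes, progenitor cells and some tumours, and it ran against the rest. Its estimated level was 109 in aPD-1 cultures (103 to 118), 160 in aPD-1+CD8 cultures (152 to 168), 56.2 in IFNg cultures (50.2 to 62.1) and 201 in IgG cultures (188 to 218). The ranges over tables did not overlap between any of the 4 groups, although aPD-1+CD8 and IgG were not separated by the authors' test. In the authors' deposited table for aPD-1 against IgG it fell by 0.88 ± 0.22 in log2. Pericyte and mural markers did not all move with it: in the authors' deposited table for aPD-1 against IgG, Pdgfrb was at -0.28 ± 0.21 and Des at -0.33 ± 0.19 without passing, Myh11 fell by 2.28 ± 0.41 and Notch3 rose by 1.45 ± 0.38.

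Promoter sequences are shown for the 2 syndecans with the largest increase and for Cspg4, which fell, so that genes of opposite direction can be compared. They run from 250 bases before to 50 after the gene start in RefSeq's GRCm38.p6, a build other than that of the expression tables. Promoters of 7 of the 10 members were matched. Those of Prg4, Dcn and Sdc2, which rose in aPD-1 v IgG, were not. Capitals mark GC boxes, searched as GGGCGG on both strands. The Sdc1 window is chr12:8771146-8771445 on the plus strand, that of Sdc4 is chr2:164443139-164443438 on the minus strand, and that of Cspg4 is chr9:56864854-56865153 on the plus strand.
Sdc1: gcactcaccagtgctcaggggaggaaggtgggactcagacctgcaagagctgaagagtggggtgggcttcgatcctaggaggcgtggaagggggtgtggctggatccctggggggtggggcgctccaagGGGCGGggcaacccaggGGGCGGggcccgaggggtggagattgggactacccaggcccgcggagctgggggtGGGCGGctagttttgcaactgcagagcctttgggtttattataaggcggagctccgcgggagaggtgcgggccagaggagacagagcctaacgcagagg
Sdc4: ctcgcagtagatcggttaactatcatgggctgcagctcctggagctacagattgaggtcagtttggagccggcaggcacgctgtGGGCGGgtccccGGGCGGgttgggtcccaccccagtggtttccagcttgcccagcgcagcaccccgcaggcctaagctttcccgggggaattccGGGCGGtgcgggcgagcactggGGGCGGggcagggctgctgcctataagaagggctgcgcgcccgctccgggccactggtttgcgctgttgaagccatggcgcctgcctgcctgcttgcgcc
Cspg4: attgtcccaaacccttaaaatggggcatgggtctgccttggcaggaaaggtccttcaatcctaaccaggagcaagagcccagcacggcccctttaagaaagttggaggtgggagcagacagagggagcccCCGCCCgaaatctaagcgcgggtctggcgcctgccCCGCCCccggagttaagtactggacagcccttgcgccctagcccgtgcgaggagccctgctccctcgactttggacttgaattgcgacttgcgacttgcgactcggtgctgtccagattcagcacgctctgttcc

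The Sdc1 window held 3 GC boxes, the Sdc4 window 4 and the Cspg4 window 2. All 7 matched promoters held at least 1, including those of Bgn, Vcan, Hspg2 and Sdc3, against 35.7% of 32851 promoters of this length. None of the 7 held the AP-1 motif TGANTCA (7.81% of promoters), the cAMP response element TGACGTCA (1.79%) or the STAT motif TTCNNNGAA (8.30%), each on both strands. These are matches of letters in a short window and name no factor. The matched promoters of genes that rose, Sdc1, Sdc4, Hspg2 and Vcan, and that of Cspg4, which fell, did not differ in which of these motifs they held. Prg4, Dcn and Sdc2 could not be compared.

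Of 24 listed genes for the chain linker and for chondroitin and dermatan sulfate chains, 11 rose, 0 fell and 13 missed the threshold in aPD-1 v IgG, where 8.50% of all tested genes rose and 10.0% fell. The list had a median log2 fold change of 0.43 against 0.01 over all tested genes. Csgalnact1, which starts a chondroitin chain, rose by 1.89 ± 0.23, and Chst11, a chondroitin 4-sulfotransferase, by 1.16 ± 0.17 in the authors' deposited table. Chpf2, a chondroitin polymerising factor, rose by 1.06 ± 0.21, and Ugdh, which makes the UDP-glucuronate used in all these chains, by 0.83 ± 0.14 in the authors' deposited table. Heparan sulfate enzymes were mixed: of 15 listed genes, 13 of them tested, 1 rose and 3 fell. Ext1, a heparan sulfate polymerase, rose by 0.45 ± 0.14 in the authors' deposited table. The genes that fell were the epimerase Glce at -1.04 ± 0.14, the 6-O-sulfotransferase Hs6st1 at -0.63 ± 0.18 and the extracellular sulfatase Sulf2 at -1.33 ± 0.23, per the authors' deposited table. The difference between the 2 lists was not tested, and nothing is read from their counts beside the shares.

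**Figure D3:**
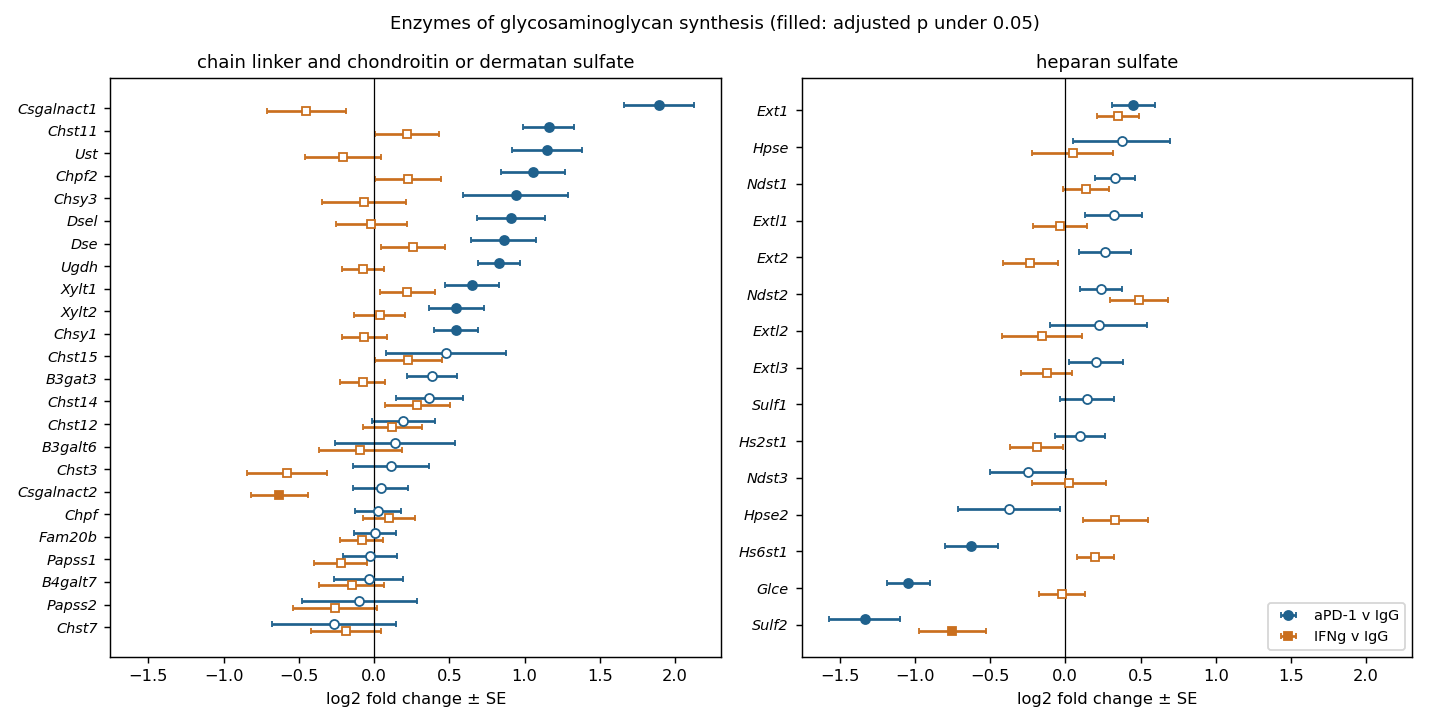
Log2 fold change with SE (x axis) of each listed enzyme (rows), for chain linker and chondroitin or dermatan sulfate synthesis on the left and heparan sulfate on the right. Blue circles are aPD-1 v IgG and orange squares IFNg v IgG, filled where the adjusted p was under 0.05. The 11 filled circles on the left all lie above 0, while on the right 1 lies above and 3 below.

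Of 16 listed proteases that cut or shed proteoglycans and their inhibitors, 10 rose, 1 fell and 5 missed the threshold in aPD-1 v IgG, against 8.50% higher and 10.0% lower over all tested genes. The largest was Mmp2 (above), and the collagenase Mmp14 rose by 1.45 ± 0.13, the procollagen and proteoglycan processing enzyme Bmp1 by 2.26 ± 0.17 and the inhibitor Timp1 by 2.48 ± 0.22 in the authors' deposited table. The aggrecanases and versicanases went different ways: in the authors' deposited table Adamts1 rose by 1.83 ± 0.17, Adamts4 by 1.67 ± 0.20 and Adamts5 by 1.40 ± 0.42, whereas Adamts9 fell by 1.16 ± 0.19. Adam10 and Adam17, proteases that shed cell-surface proteins, rose by 0.46 ± 0.14 and 0.52 ± 0.15 in the authors' deposited table. The Adamts and Adam genes were named after their values were seen. For this list too, chosen with earlier results known, nothing is read from the counts beside the shares.

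Of 10 listed glypicans and similar cell-surface genes, 9 of them tested, 3 rose and 2 fell in aPD-1 v IgG, Cspg4 among those that fell. Over all tested genes the same 8.50% were higher and 10.0% lower. Nrp1, a co-receptor of VEGF and semaphorins that can carry a sugar chain, rose by 1.67 ± 0.20 and the glypican Gpc1 by 0.75 ± 0.16, while the glypican Gpc6 fell by 0.98 ± 0.27, in the authors' deposited table. Tgfbr3, betaglycan, rose by 0.45 ± 0.17 in the authors' deposited table. Of 20 listed receptors and ligands, 18 of them tested, 5 rose, 2 fell and 13 did not pass. Among these the heparin-binding growth factor Fgf7 rose by 3.44 ± 0.22 and Vegfa by 1.73 ± 0.15, the endocytic receptor Lrp1 rose by 0.84 ± 0.13, and Met, the receptor of hepatocyte growth factor, fell by 2.08 ± 0.20, in the authors' deposited table. No gene of the mucin list passed, but all 5 listed genes of its 9 had a mean count under 10 and only 1 was tested. Of 10 listed fibroblast markers, 8 of them tested, 4 rose, 0 fell and 6 did not pass in the same comparison. Those that rose included Col3a1 by 2.42 ± 0.19, Pdgfra by 1.25 ± 0.20 and Pi16 by 3.01 ± 0.38 in the authors' deposited table, where Fap, at -0.48 ± 0.35, and Col1a2, at 0.24 ± 0.42, missed the threshold. Their part in the changes of Prg4, Dcn and the other members was not tested.

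**Figure D4:**
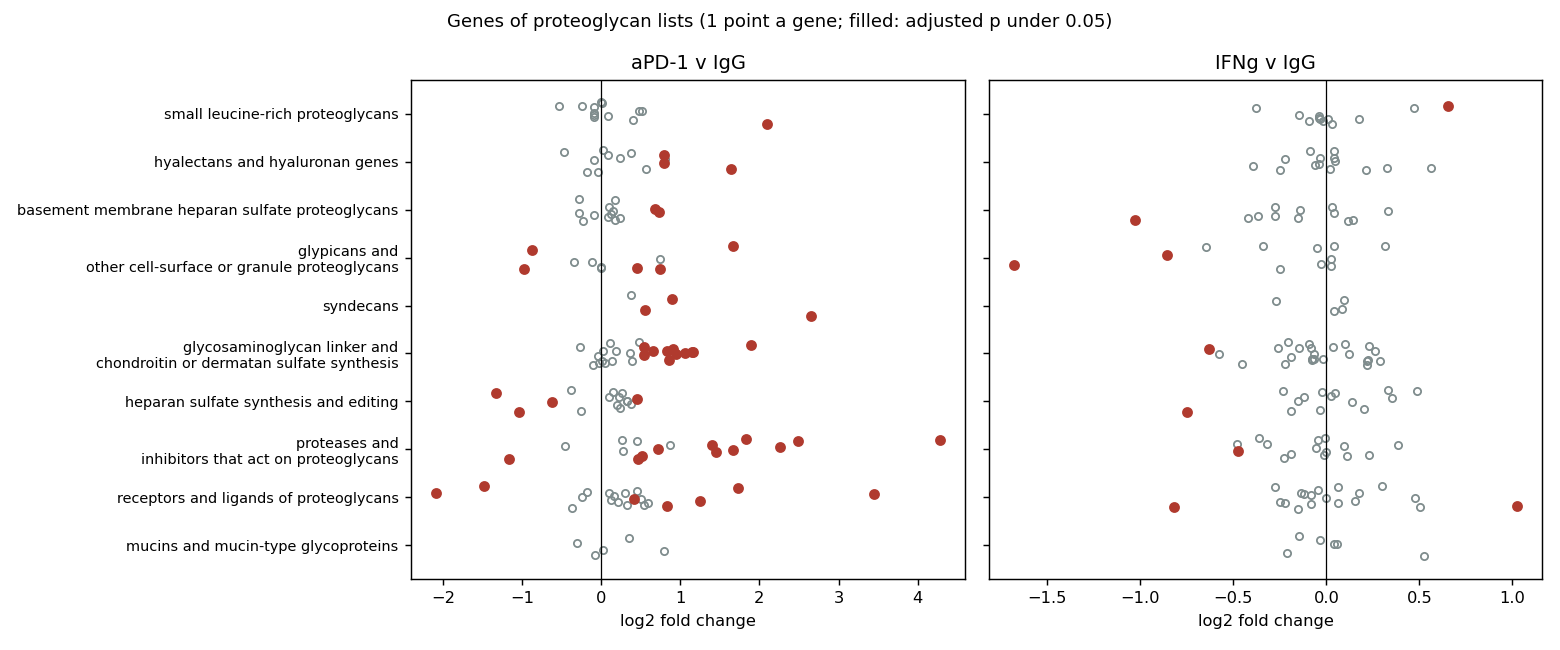
Log2 fold change (x axis) of every listed gene, 1 point a gene, in the 10 lists (rows), for aPD-1 v IgG on the left and IFNg v IgG on the right, whose x axes differ. Filled points passed an adjusted p under 0.05, and vertical scatter only separates points. Filled points are many and mostly above 0 on the left, and few on the right.

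Adding an antibody against CD8 to PD-1 blockade was examined by setting aPD-1+CD8 against aPD-1 alone. It shares the aPD-1 samples with aPD-1 v IgG, so a high value there lowers this one by construction, and the 2 are not independent. Of the 10 members 7 fell and 0 rose, against 14.8% of 11560 tested genes changed and 6.94% lower (7.82% were higher). The null fitted to the scores left Prg4, Dcn and Sdc1, against 3.41% of tested genes. Here too the members were chosen on such fold changes, and nothing is read from these shares. The 7 were Prg4, Dcn, Sdc1 and, in the authors' deposited table, Vcan at -1.53 ± 0.40, Sdc4 at -0.95 ± 0.20, Sdc2 at -0.83 ± 0.22 and Hspg2 at -0.69 ± 0.16. Cspg4 was at 0.56 ± 0.23 in the authors' deposited table and did not pass, and Bgn was at -0.16 ± 0.34 and Sdc3 at -0.37 ± 0.24. Of 24 chain linker and chondroitin genes 11 fell and 0 rose, with Csgalnact1 at -1.89 ± 0.26 in the authors' deposited table. In the heparan sulfate list Glce rose by 1.04 ± 0.17 and Hs6st1 by 0.63 ± 0.21 in the authors' deposited table, and 0 fell.

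Set against IgG, the aPD-1+CD8 cultures showed no called gene at all. In the authors' DESeq2 test 0 of 15304 tested genes (0.00%) passed, none of the 10 members among them, and 57 genes had an unadjusted p under 0.05. The log2 fold change farthest from 0 over all genes, found after the values were seen, was that of the heparan sulfate editing gene Sulf2, at -0.35 ± 0.11 in the authors' deposited table. Genes with a mean count under 10 had a median SE of 0.0217 there, against 0.133 to 0.369 in the other 4 comparisons, per the authors' deposited tables. These small SEs were not read as bounds on the differences. Among members the deposited value farthest from 0 was that of Cspg4, at -0.16 ± 0.11 in the authors' deposited table (DESeq2 adjusted p = 0.9998). Differences of rescaled mean counts, which use no fold change, gave 558 in aPD-1+CD8 and 585 in IgG cultures for Dcn, and 192 in aPD-1+CD8 and 182 in IgG cultures for Sdc1. For Cspg4 they gave 164 in aPD-1+CD8 and 205 in IgG cultures, a ratio of 0.80, with no test.

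Interferon-gamma changed 2 of the 10 members relative to IgG, against 4.10% of 11478 tested genes. Cspg4 fell by 1.68 ± 0.23 in log2 in the authors' deposited table (DESeq2 adjusted p = 2.4e-11), where 1.38% of tested genes fell. Only 2 of the 11478 tested genes had a lower log2 fold change, and differences of rescaled mean counts put the levels at 46.4 in IFNg and 205 in IgG cultures, a log2 ratio of -2.14. Dcn rose by 0.66 ± 0.15 in the authors' deposited table (DESeq2 adjusted p = 0.0012), where 2.73% of tested genes rose. This comparison shares its IgG samples with aPD-1 v IgG. The members were chosen with earlier results of these data known, so nothing is read from these shares.

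The other 8 members did not pass with interferon-gamma. Sdc2 was at -0.27 ± 0.18 in the authors' deposited table (DESeq2 adjusted p = 0.65). Sdc1, which had moved strongly with aPD-1, was at 0.08 ± 0.17 in the authors' deposited table, with a 95% interval from -0.26 to 0.42, and Hspg2 was at 0.03 ± 0.17, from -0.30 to 0.37. For Prg4 and Vcan, with mean counts of 3.38 and 4.53 in the authors' deposited table, a fall or a small change was not detectable at this depth. Those counts lay far below the levels in aPD-1 cultures, 518 and 22.3, so a rise of that size was not seen. Over all tested genes 1.38% fell and 2.73% rose in IFNg v IgG. Of 10 listed fibroblast markers, 6 of them tested, 3 fell and 0 rose in this comparison. These were Fap at -1.17 ± 0.28 (DESeq2 adjusted p = 0.0013), Col1a1 at -0.94 ± 0.23 (adjusted p = 0.0026) and Col3a1 at -1.01 ± 0.22 (adjusted p = 0.00019) in the authors' deposited table. The collagen gene Col1a2, also listed, was at -0.32 ± 0.27 and missed the threshold in the authors' deposited table, and in the authors' deposited table Pdgfra, at 0.50 ± 0.22, missed the threshold. Beside Cspg4, the mural genes Des at -0.93 ± 0.21 and Myh11 at -1.30 ± 0.27 fell, Acta2 rose by 1.19 ± 0.27 and Pdgfrb, at -0.08 ± 0.24, missed the threshold, in the authors' deposited table. The part of these markers in the changes of Cspg4 and Dcn was not tested.

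Beside these 2 members, 7 genes of the proteoglycan lists passed in IFNg v IgG. Tested genes, members included, numbered 24 in the chain linker list, 14 each in the heparan sulfate and protease lists and 15 among receptors and ligands. They numbered 10 each in the hyalectan and basement membrane lists, 8 among glypicans, 4 syndecans, 3 small leucine-rich genes and 1 mucin. Of all tested genes 4.10% passed, 2.73% as higher and 1.38% as lower. No share over the lists together was computed. Of 24 chain linker and chondroitin genes 1 fell and 0 rose, Csgalnact2 at -0.63 ± 0.19 in the authors' deposited table (DESeq2 adjusted p = 0.024). In the heparan sulfate list Sulf2 fell by 0.75 ± 0.22 (DESeq2 adjusted p = 0.023), and of the proteases and inhibitors Timp2 fell by 0.47 ± 0.15 (adjusted p = 0.044) in the authors' deposited table. Nrp1 fell by 0.86 ± 0.23 (DESeq2 adjusted p = 0.009) and the laminin gene Lama4 by 1.03 ± 0.28 (adjusted p = 0.0089) in the authors' deposited table. Fgf7 rose by 1.03 ± 0.26 (DESeq2 adjusted p = 0.0042) and Vegfa fell by 0.82 ± 0.12 (adjusted p = 4.9e-09), in the authors' deposited table.

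The direct comparison of IFNg with aPD-1 put the 2 treatments side by side. It shares the aPD-1 samples with aPD-1 v IgG, so a high value there lowers this one by construction, and the 2 comparisons are not independent. All 10 members had a negative log2 fold change and 8 passed as lower, against 15.5% of 12260 tested genes changed and 7.13% lower (8.39% were higher). Under the fitted null Prg4, Dcn and Sdc1 passed, against 4.50% of tested genes. Because the members were chosen on fold changes with aPD-1 on a side, nothing is read from these shares. Beside Prg4, Dcn and Sdc1, the authors' deposited table had Vcan at -1.74 ± 0.45, Sdc4 at -0.87 ± 0.20, Sdc2 at -0.87 ± 0.21 and Hspg2 at -0.72 ± 0.18. Cspg4, lower in both treatments than in IgG, was lower in IFNg than in aPD-1 cultures as well, at -1.08 ± 0.31 in the authors' deposited table. In the authors' deposited table Bgn at -0.60 ± 0.38 and Sdc3 at -0.30 ± 0.24 missed the threshold. Of 16 listed proteases and inhibitors 12 were lower and 1 higher, and of 24 chain linker and chondroitin genes 8 were lower and 0 higher. The hyaluronan-binding protein gene Tnfaip6 was lower at -1.70 ± 0.47 in the authors' deposited table. Of 13 listed basement membrane genes, 11 of them tested, 4 were lower, Hspg2 included, and 1 was higher. The other lower genes were Lama4 at -1.75 ± 0.38, Col18a1 at -0.98 ± 0.21 and the dystroglycan gene Dag1 at -0.56 ± 0.18, and the higher one was Agrn, encoding the heparan sulfate proteoglycan agrin, at 0.61 ± 0.21, in the authors' deposited table.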

How the data were processed

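RNA of 12 samples of MC38 cultures was measured, 3 in each of 4 groups taken from the treatment in the labels. The files are 5 tables of comparisons made by the authors with DESeq2 on the mm9 build, per the submitters' processing notes. How reads were aligned and counted, with which annotation and whether by strand, is a point not given in the sources used here. Libraries were made from 250 ng of RNA by exome capture, per the labels' protocols, so genes without probes may be measured poorly. Per the file headers, the deposited signal of each gene is a mean normalized count over both groups, beside a log2 fold change and its standard error. The authors also deposited the Wald score and the p-value, raw and adjusted. The tables hold 0 columns of single samples, so the depth and spread of single libraries are not known here. The deposited mean counts sum to between 10292941 and 11590748, of which the ribosomal RNA gene Rn45s holds 27.8% to 29.6%.

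Calls used the authors' adjusted p under 0.05. Levels of the first and second group were computed as the doubled mean count split in the ratio of the fold change, with 3 libraries a group. Added after seeing the data, the tables were rescaled by their median ratio to the geometric mean over tables, for the 5706 genes whose mean count reached 100 in every table, and levels solved from differences of mean counts. The alternative gave 2 estimates of the IgG level, which differed by a median of 0.299%, against 0.592% without rescaling. Levels from rescaled differences, the adjustment of p-values and the null fitted to the scores were tested on simulated data. Levels split by the fold change, and shrinkage, were not. The error in fold was checked for well-counted genes alone, so it does not cover Prg4 outside aPD-1 cultures or Vcan. Intervals are 1.96 SE. The members, lists, tests and alternatives were chosen with earlier results of these data known. All members are named, with up to 4 changed genes of each list and comparison, and the 5 genes nearest to Prg4 and to Dcn. Python 3.11.15, pandas 2.3.3, numpy 2.4.6, scipy 1.17.1 and matplotlib 3.10.9 were used. Of 16399 symbols, 15622 matched the mouse gene names at hand.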

Additional observations from a re-analysis of the deposited data

How the results depend on the processing

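The count of members called kept within 1.5 times its value at an adjusted p under 0.01, with a filter on mean counts of at least 10, with no filter, and with fold changes recentred on the median gene, in each of the 5 comparisons. Requiring a log2 change of 1 or more, it was 4 in aPD-1 v IgG, 4 in aPD-1+CD8 v aPD-1, 5 in IFNg v aPD-1 and 1 in IFNg v IgG. Against an empirical null it was 3 in aPD-1 v IgG, 3 in aPD-1+CD8 v aPD-1 and 3 in IFNg v aPD-1. This null widens the scores to their own spread, which in those comparisons also holds many changed genes. Direction could change only under the empirical null and the recentred fold changes, and it did so in none of the 50 pairs of gene and comparison. The other alternatives keep the deposited fold change and so its direction. Calls were lost in 11 pairs with the minimum change, in 14 with the empirical null and in 1, Sdc2 in aPD-1 v IgG, at an adjusted p under 0.01.

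Of 40 estimated levels, 28 moved by more than the spread between tables when taken from unscaled differences of mean counts and 15 when taken from rescaled ones. The unscaled differences gave values below 0 for Prg4 in aPD-1+CD8 and IFNg cultures, so no level is given there. No paired analysis was possible because the tables hold no columns of single samples, and leaving out a replicate was not run for the same reason. Low counts limit Prg4 outside aPD-1 cultures and Vcan, and the deposited SEs of aPD-1+CD8 v IgG were not read as bounds.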
